A study of Drosophila melanogaster with 6 samples.

Results

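The Niemann-Pick C (NPC) sterol transport family of *Drosophila* was followed in the RNA of whole larvae with and without *Dctn1* knockdown. Its members were taken by gene symbol, as *Npc1a*, *Npc1b* and *Npc2a* to *Npc2h*, and all 10 were found among the 13858 genes of the deposited table. The family thus holds 2 *Npc1* and 8 *Npc2* genes. In the knockdown group, the ubiquitous driver *Act5C*-GAL4 activated *Dctn1-IR1*, a UAS RNAi transgene against *Dctn1*, which encodes the p150 subunit of the dynein partner dynactin. The control group was labelled Actin control and is described by the study as driver only, so *Act5C*-GAL4 was common to both groups. All larvae were females that fed on grape agar with yeast, and the age given is 96 h, counted from hatching in the series text and from egg laying in the study's methods. There were 3 libraries per group, numbered 1, 2 and 3 for the knockdown and 2, 3 and 4 for the control, and each came from a pool of 12 to 15 larvae. A single RNAi transgene was used, and it was expressed in the whole body, so a change cannot be placed in a tissue.

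NPC proteins move sterols out of late endosomes and lysosomes. NPC2 proteins are small, soluble and carry the sterol, while NPC1 proteins span the membrane many times, have a sterol-sensing domain and receive the sterol from NPC2. Loss of either protein causes Niemann-Pick type C disease in humans, with storage of cholesterol in lysosomes. Flies cannot make sterols and live on those of their food, such as the ergosterol of yeast, and they need sterols to make the moulting hormone ecdysone.

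Values are FPKM, a fragment count scaled by transcript length and by the size of the library, which allows levels to be compared between genes per length. Read counts and library totals were not analysed here, so the depth of each library is unknown and no counting interval is given. The FPKM values summed to between 94.2% and 98.02% of the mean over the 6 libraries in knockdown and to between 102% and 107% in control libraries. Differences were tested with limma on log2(FPKM + 0.1) for the 9978 genes with a mean of at least 0.5 FPKM, a scale that understates the change of low genes. A differentially expressed gene (DEG) passed both thresholds of the study, an adjusted p (Benjamini-Hochberg) under 0.05 and a log2 fold change above 1 in size. Over all tested genes the log2 fold change had a median of 0.16, or -0.01 once median-of-ratios factors had rescaled the libraries, so each member is read against this shift. *Dctn1*, listed as DCTN1-p150, had 7.33, 7.96 and 6.85 FPKM in knockdown replicates 1, 2 and 3. In control replicates 2, 3 and 4 it had 15.3, 15.2 and 12.5 FPKM. The knockdown mean was 51.5% of control, or -0.94 on the log2 scale (limma, standard error 0.13, adjusted p = 0.00737). That is just under the fold threshold of a DEG, and after median-of-ratios scaling it was -1.12 (adjusted p = 0.00422, limma). By qRT-PCR in larvae of both sexes, the study describes a strong reduction of *Dctn1*. Markers of midgut, fat body, hemocytes, neurons and muscle were detected in every library of these whole larvae, and of 7 testis genes only 1 was high enough to test.

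Of the 10 members, 2 were DEGs, *Npc2c* and *Npc2h*, and both rose in *Dctn1* knockdown. Over all tested genes, 2.91% were DEGs in either direction, 1.82% were higher and 1.08% were lower. By the adjusted p alone 3 members passed, *Npc2b* with these, beside 6.71% of all tested genes (5.06% higher and 1.65% lower). At an unadjusted p under 0.05 there were 5, beside 25.3% of all tested genes. Another 3 members, *Npc2b*, *Npc2g* and *Npc1b*, had groups that did not overlap but were no DEGs. Groups that do not overlap were found for 5 members, and for 33.5% of all tested genes. Of these, 4 members lay above the control libraries in every knockdown library, where 28.8% of all tested genes did so, and 1 member lay below, where 4.66% did. After median-of-ratios scaling the same 4 members were above and the same 1 below, and the shares of all tested genes became 13.5% and 12.9%. For *Npc2g* this separation was then almost a tie, with 167.1 in knockdown replicate 3 and 167.0 in control replicate 4. The median log2 fold change of the 10 members was 0.37, beside 0.16 for all tested genes. Of the members, 9 had a log2 fold change above 0, as 74.2% of all tested genes did. After median-of-ratios scaling the median of the members was 0.19, and 7 members and 47.7% of all tested genes were above 0. With 3 libraries per group, a two-sided exact permutation test of a single gene cannot give less than p = 0.1.

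**Figure D1:**
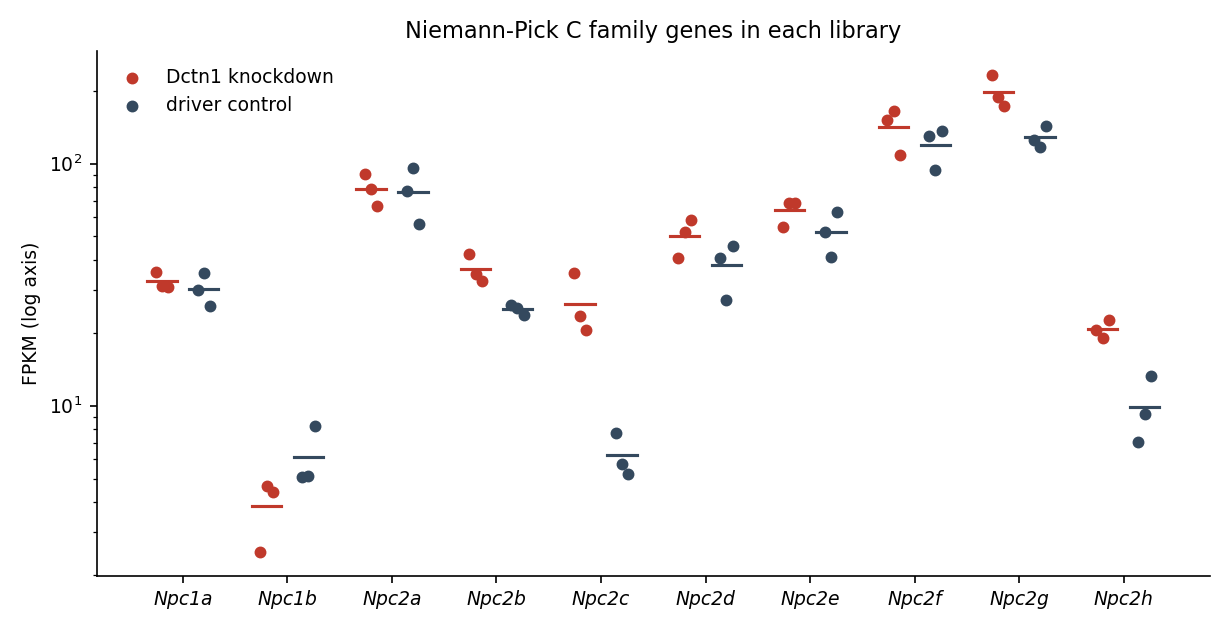
FPKM of the 10 family genes on a log axis, with 1 point per library and a line at the mean of each group, *Dctn1* knockdown on the left and driver control on the right. *Npc2c* and *Npc2h* had the widest gap between groups, with knockdown libraries between 19.06 and 35.3 FPKM and control libraries between 5.24 and 13.2 FPKM, while *Npc1b* lay lower in the knockdown.

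**Figure D2:**
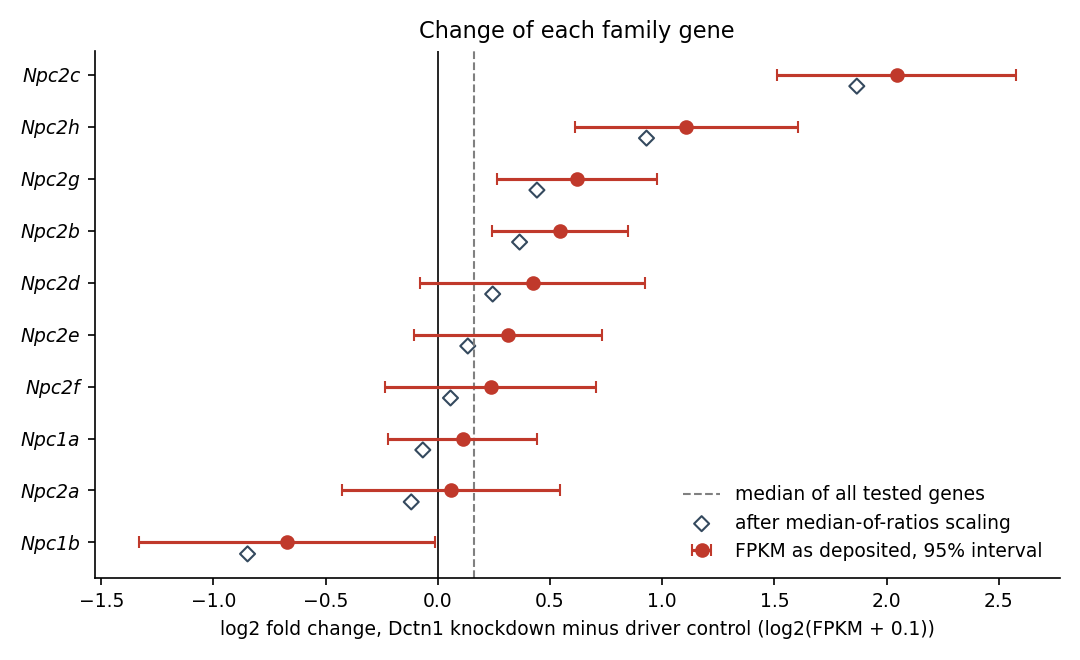
Log2 fold change of each family gene, knockdown minus control, with its 95% interval from limma (filled circles) and the value after median-of-ratios scaling (open diamonds), and the median of all tested genes as a dashed line at 0.16. The intervals of *Npc2c* (1.51 to 2.58), *Npc2h* (0.61 to 1.6), *Npc2g* (0.27 to 0.98) and *Npc2b* (0.24 to 0.85) lie above that line, and the interval of *Npc1b* (-1.33 to -0.01) lies below it.

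The membrane proteins of the family are encoded by *Npc1a* and *Npc1b*. *Npc1a* (gene ID 34358) lies on the minus strand of 2L from 10213812 to 10221216 in BDGP6.54, the build of the annotation used here, since the file gives no coordinates. It is the general NPC1 of the fly, used in most tissues and needed in the ring gland for ecdysone production. *Npc1a* had 35.7, 31.2 and 31.04 FPKM in knockdown replicates 1, 2 and 3, against 30.1, 35.2 and 25.8 FPKM in control replicates 2, 3 and 4. The groups overlapped, and the knockdown mean was 107% of the control mean. The log2 fold change was 0.11 (95% interval -0.22 to 0.44, adjusted p = 0.657, limma), and its sign turned to -0.07 after median-of-ratios scaling. With single libraries left out it lay between 0.0002 (without control replicate 4) and 0.22 (without control replicate 3). The interval leaves room for changes of either sign, all smaller than the 2-fold threshold. Its neighbours *ath*, listed as CG4901, and *Prosalpha6*, a proteasome subunit gene, lie 90 and 134 bp away and had log2 fold changes of 0.37 and -0.11 (adjusted p = 0.268 and 0.7998, limma).

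*Npc1b* (gene ID 33072) lies on the plus strand of X from 20934869 to 20939503 and encodes the NPC1 protein of the midgut, which is required there for the uptake of dietary sterol. It was the lowest member, with 2.49, 4.64 and 4.4 FPKM in knockdown replicates 1, 2 and 3 and 5.09, 5.1 and 8.2 FPKM in control replicates 2, 3 and 4. Every knockdown library lay below every control library, although knockdown replicate 2 was only narrowly below control replicate 2. The mean in knockdown larvae was 62.7% of that in control larvae, or -0.67 on the log2 scale (standard error 0.28). It did not pass the test over all genes (unadjusted p = 0.0466, adjusted p = 0.190, limma), and the two-sided exact permutation p was 0.1. The value rested in part on single libraries, with a log2 fold change of -0.40 without knockdown replicate 1, the lowest library for this gene, and -0.45 without control replicate 4, the highest one. The 5 midgut markers *mex1*, *Myo31DF*, *Myo61F*, *GATAe* and *cad* summed to between 513 and 630 FPKM in knockdown and between 363 and 488 FPKM in control libraries. As deposited, every knockdown sum lay above every control sum. After division by the median-of-ratios factors these sums overlapped, with control replicate 4 above knockdown replicates 1 and 3. In limma 0 of the 5 were DEGs and 4 had an unadjusted p under 0.05, beside 25.3% of all tested genes. The part of these markers in the values of *Npc1b* was not tested. Of the genes beside *Npc1b*, *CG11227* was at 0.07 FPKM or less in every library, and *Ser6*, a serine protease gene, had a log2 fold change of -0.10 (adjusted p = 0.784, limma). In RNA of whole larvae, fewer cells of a type and less RNA per cell cannot be told apart.

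The sum of both *Npc1* genes was 36.5 ± 1.45 FPKM in knockdown and 36.5 ± 3.35 FPKM in control larvae (SD, n = 3 libraries each). *Npc1a* thus outweighed *Npc1b* in every library, by 14.3, 6.73 and 7.05 times in knockdown replicates 1, 2 and 3 and by 5.92, 6.91 and 3.15 times in control replicates 2, 3 and 4. This ratio overlapped between the groups (two-sided exact permutation test, p = 0.2).

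Among the soluble proteins, *Npc2a* is the closest counterpart of the general NPC2, and *Npc2a* and *Npc2b* share a role in sterol balance and ecdysone production, since the larva survives the loss of one better than the loss of both. *Npc2a* (gene ID 33374) is a gene of 1 exon on the plus strand of 2L from 1988290 to 1988940. It had 90.8, 78.2 and 66.5 FPKM in knockdown replicates 1, 2 and 3, against 77.0, 96.1 and 56.2 FPKM in control replicates 2, 3 and 4. The control libraries alone spanned the knockdown values, and the log2 fold change was 0.06 (95% interval -0.43 to 0.55, adjusted p = 0.883, limma). It was -0.12 after median-of-ratios scaling, -0.14 without control replicate 4 and 0.24 without control replicate 3. *Npc2a* and *Npc1a* put the libraries of each group in the same order, with knockdown replicate 1 highest and control replicate 4 lowest within their groups. Beside *Npc2a*, the aminotransferase gene *Got2* had a log2 fold change of -0.09 (adjusted p = 0.668, limma), and *Obp22a* was at 0.22 FPKM or less and not tested. The ratio of *Npc1a* to *Npc2a* stayed between 0.393 and 0.466 in knockdown and between 0.366 and 0.459 in control libraries.

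*Npc2b* (gene ID 41710) lies on the plus strand of 3R from 14089517 to 14092425 and has 3 exons. It had 42.3, 34.8 and 32.7 FPKM in knockdown replicates 1, 2 and 3, against 26.03, 25.2 and 23.7 FPKM in control replicates 2, 3 and 4. The controls were close to each other, at 25.0 ± 1.17 FPKM (SD, n = 3), and every knockdown library lay above them, at 36.6 ± 5.03 FPKM (SD, n = 3). The difference was 1.47-fold, or 0.54 on the log2 scale (standard error 0.13), so it was under the fold threshold of a DEG. Its adjusted p was 0.0494 (limma, where 5.06% of all tested genes were higher with an adjusted p under 0.05), and leaving out any 1 of the 6 libraries gave adjusted p-values between 0.0706 and 0.178. After median-of-ratios scaling the log2 fold change was 0.36 with an adjusted p of 0.123. The neighbouring gene *foxo*, which encodes a transcription factor of the insulin pathway and ends 1538 bp away, had a log2 fold change of 0.23 (adjusted p = 0.283, limma). *CCHa1*, a neuropeptide gene that lies 78 bp away on the other side, had 0.04 (adjusted p = 0.940).

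*Npc2c*, *Npc2d* and *Npc2e* stand side by side on 3R with no other protein-coding gene between them. *Npc2e* (gene ID 326136) is on the plus strand from 10053332 to 10054348, *Npc2d* (gene ID 41232) on the minus strand from 10055356 to 10056083, and *Npc2c* (gene ID 41233) on the plus strand from 10060252 to 10061136. The gap is 1007 bp between *Npc2e* and *Npc2d* and 4168 bp between *Npc2d* and *Npc2c*. *Npc2e* protein is known to bind parts of bacterial cell walls, and little is known of the roles of *Npc2c* and *Npc2d* beyond the family. The annotation places an antisense RNA across *Npc2c* and another across *Npc2e*, neither of which has an entry in the file. The sources used here do not say that strand was used in counting, so reads from a gene and its antisense partner cannot be told apart.

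*Npc2c* had the largest change of the family. It had 35.3, 23.4 and 20.5 FPKM in knockdown replicates 1, 2 and 3, against 7.74, 5.73 and 5.24 FPKM in control replicates 2, 3 and 4. The lowest knockdown library was well above the highest control library, and knockdown replicate 1 stood above the other knockdown libraries. The mean of 26.4 ± 7.81 FPKM in knockdown larvae was 4.23 times the 6.24 ± 1.32 FPKM in control larvae (SD, n = 3 each). On the log2 scale limma gave 2.04 (standard error 0.23, adjusted p = 0.00370), or 1.88 above the median of all tested genes. It was 1.87 after median-of-ratios scaling (adjusted p = 0.0101) and between 1.82 and 2.21 with each library left out in turn, and *Npc2c* was called as a DEG under each of the 14 alternatives tried.

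Its neighbours in the cluster did not separate the groups. *Npc2d* had 40.6, 52.1 and 58.2 FPKM in knockdown replicates 1, 2 and 3, against 40.7, 27.4 and 45.7 FPKM in control replicates 2, 3 and 4. Its log2 fold change was 0.42 (95% interval -0.08 to 0.92, adjusted p = 0.267, limma), with the groups overlapping. *Npc2e* had 54.6, 68.9 and 68.6 FPKM in knockdown replicates 1, 2 and 3, against 52.3, 40.9 and 62.9 FPKM in control replicates 2, 3 and 4. Its log2 fold change was 0.31 (95% interval -0.11 to 0.73, adjusted p = 0.319, limma). Both intervals reach from about no change to a change near 2-fold at most. Without control replicate 3, the lowest library of both genes, the log2 fold changes were 0.21 for *Npc2d* and 0.15 for *Npc2e*, and after median-of-ratios scaling 0.24 and 0.13.

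*Npc2d* and *Npc2e* kept close to each other across the libraries, both being lowest in knockdown replicate 1 of their group and in control replicate 3 of theirs. Their ratio lay between 0.743 and 0.848 in knockdown and between 0.669 and 0.777 in control libraries. The ratio of *Npc2c* to *Npc2d* behaved otherwise, with 0.869, 0.450 and 0.352 in knockdown replicates 1, 2 and 3 and 0.190, 0.209 and 0.115 in control replicates 2, 3 and 4. The groups did not overlap in this ratio, and p was 0.1 in a two-sided exact permutation test, its lower limit here. The same held for the ratio of *Npc2c* to *Npc2e*, with means of 0.428 ± 0.189 in knockdown and 0.124 ± 0.0352 in control larvae (SD, n = 3 each, exact permutation p = 0.1). Thus within each library *Npc2c* took a larger part of the cluster in knockdown larvae, and no rescaling of libraries can alter such a ratio.

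On the outer side of *Npc2e*, 462 bp away, *Fancl* encodes a ubiquitin ligase of the Fanconi anaemia DNA repair pathway. It had 11.1, 12.3 and 8.92 FPKM in knockdown replicates 1, 2 and 3, against 6.12, 4.74 and 5.91 FPKM in control replicates 2, 3 and 4. Its log2 fold change was 0.93 (adjusted p = 0.0188, limma), just under the threshold for a DEG, and the adjusted p was 0.0726 after median-of-ratios scaling. It was also above 0.05 without knockdown replicate 1 (0.0627), knockdown replicate 2 (0.0711) or control replicate 2 (0.0514). *CG33630*, 1487 bp beyond *Npc2c*, was at 0.34 FPKM or less in every library and was not tested.

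**Figure D3:**
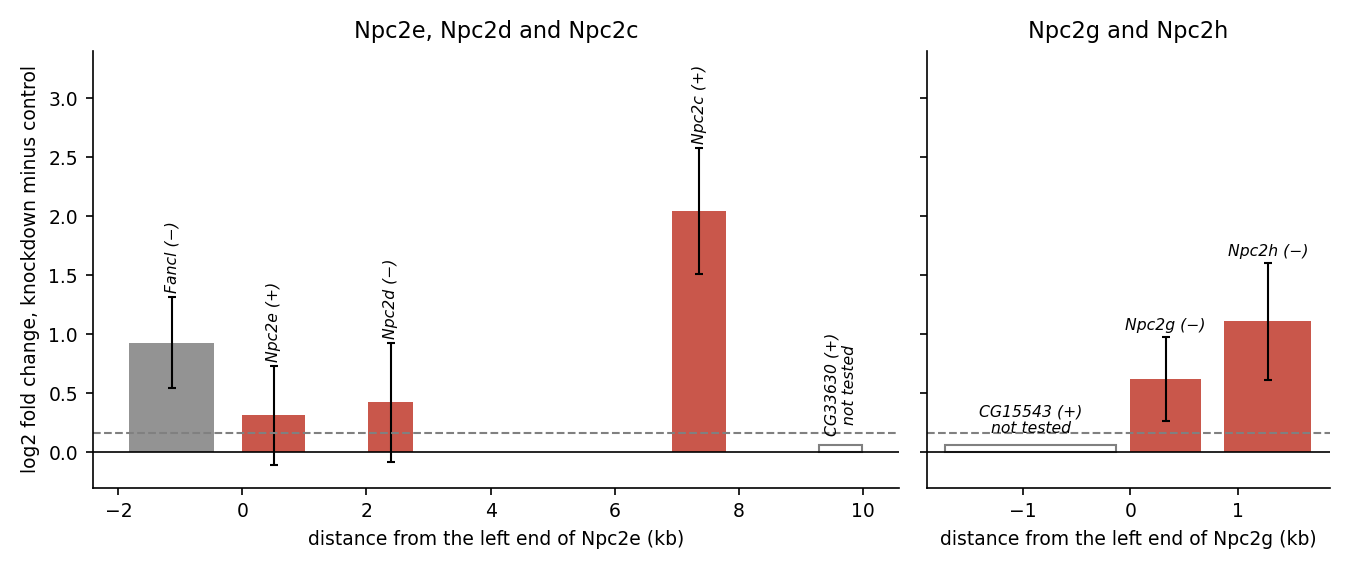
Log2 fold change of the clustered *Npc2* genes (red) and their nearest neighbours (grey), knockdown minus control, against the distance in kb from the left end of *Npc2e* or *Npc2g*. Each bar spans the gene, signs give the strand, error bars are 95% intervals from limma, open boxes were not tested, and the dashed line is the median of all tested genes at 0.16; *Npc2c* stands at 2.04 beside 0.42 for *Npc2d* and 0.31 for *Npc2e*.

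The other pair of adjacent members is *Npc2g* and *Npc2h*, which are only 215 bp apart on the minus strand of 3R. *Npc2g* (gene ID 43648) lies from 30744605 to 30745263 and *Npc2h* (gene ID 43649) from 30745479 to 30746290. The file annotates both with hemolymph coagulation, a term that 12 genes carry, and *Npc2h* protein, like that of *Npc2a* and *Npc2e*, is known to bind bacterial cell wall parts. *Npc2g* was the most abundant member per length and ranked 578 among all genes by mean FPKM.

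*Npc2h* had 20.6, 19.06 and 22.5 FPKM in knockdown replicates 1, 2 and 3, against 7.07, 9.23 and 13.2 FPKM in control replicates 2, 3 and 4. The knockdown libraries were alike, at 20.7 ± 1.71 FPKM, and the controls were spread, at 9.85 ± 3.13 FPKM (SD, n = 3 each). The mean was 2.10 times that of control larvae, or 1.11 on the log2 scale in limma (standard error 0.22, adjusted p = 0.0259). This call was less secure than that of *Npc2c*. The log2 fold change was 0.93 after median-of-ratios scaling (adjusted p = 0.131) and 0.97 with quantile normalization (adjusted p = 0.115). With a library left out, the adjusted p was 0.0774, 0.0596 and 0.0851 without knockdown replicates 1, 2 and 3, 0.0611 and 0.0654 without control replicates 2 and 3, and 0.0133 without control replicate 4. The direction was the same in all of these fits, and the log2 fold change lay between 0.90 and 1.34 with single libraries left out.

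*Npc2g* had 233, 188 and 173 FPKM in knockdown replicates 1, 2 and 3, against 125, 117 and 143 FPKM in control replicates 2, 3 and 4. All knockdown libraries were higher, with a mean of 198 ± 31.1 FPKM, compared with 128 ± 13.2 FPKM in control larvae (SD, n = 3 each). The difference was 1.54-fold, or 0.62 on the log2 scale (standard error 0.15), and it missed the threshold of the test (adjusted p = 0.0534, limma; 0.224 after median-of-ratios scaling). After that scaling, knockdown replicate 3 (167.1) and control replicate 4 (167.0) were almost level. The ratio of *Npc2g* to *Npc2h* was 11.3, 9.89 and 7.70 in knockdown replicates 1, 2 and 3 and 17.6, 12.7 and 10.8 in control replicates 2, 3 and 4. These ratios overlapped (two-sided exact permutation test, p = 0.2), so the changes of the pair were not shown to differ. The 7 hemocyte markers mark the cells of the hemolymph. They summed to between 179 and 205 FPKM in knockdown and between 132 and 154 FPKM in control libraries. After division by the median-of-ratios factors these sums overlapped, with control replicate 4 above knockdown replicate 1. In limma 0 of the 7 were DEGs and 3 had an unadjusted p under 0.05, beside 25.3% of all tested genes. The markers differed, with log2 fold changes from -0.03 to 0.72. The part of these markers in the values of the pair was not tested. Of the genes beside the pair, *CG15543* was at 0.12 FPKM or less in every library and was not tested. *zfh1*, a zinc finger and homeodomain factor gene 19635 bp beyond *Npc2h*, had a log2 fold change of 0.11 (adjusted p = 0.826, limma).

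*Npc2f* (gene ID 42864) stands alone on the plus strand of 3R from 24137895 to 24140936, with 4 exons, and its own role is not well known. It was the second most abundant member, with 151, 164 and 109 FPKM in knockdown replicates 1, 2 and 3 and 129, 94.3 and 136 FPKM in control replicates 2, 3 and 4. The groups overlapped, and the log2 fold change was 0.24 (95% interval -0.23 to 0.71, adjusted p = 0.498, limma). This value was 0.07 without control replicate 3, 0.12 without knockdown replicate 2, 0.41 without knockdown replicate 3 and 0.06 after median-of-ratios scaling. The genes on either side, *Sec10* of the exocyst and *Kal1* of the extracellular matrix, had log2 fold changes of 0.04 and -0.09, with adjusted p-values of 0.870 and 0.7999.

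By mean level in control larvae the members ran from *Npc2g* (128 FPKM) and *Npc2f* (120 FPKM) through *Npc2a* (76.5), *Npc2e* (52.04), *Npc2d* (37.9), *Npc1a* (30.4) and *Npc2b* (25.0) to *Npc2h* (9.85), *Npc2c* (6.24) and *Npc1b* (6.13 FPKM). Neighbours in this order overlapped in their 3 control libraries, apart from *Npc2b* above *Npc2h*, whose nearest libraries were at 23.7 and 13.2 FPKM. In knockdown larvae *Npc2g* (198), *Npc2f* (141), *Npc2a* (78.5), *Npc2e* (64.03) and *Npc2d* (50.3 FPKM) kept their order. *Npc2b* (36.6) then stood above *Npc1a* (32.6), *Npc2c* (26.4) above *Npc2h* (20.7), and *Npc1b* (3.84 FPKM) was last. Neighbours that did not overlap in the knockdown were *Npc2g* and *Npc2f*, *Npc2f* and *Npc2a*, and *Npc2h* and *Npc1b*.

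The summed FPKM of the 8 *Npc2* genes was 668, 629 and 551 in knockdown replicates 1, 2 and 3, against 465, 416 and 486 in control replicates 2, 3 and 4. As deposited, all knockdown sums were higher, and the mean was 1.35 times that of control larvae. After division by the median-of-ratios factors, control replicate 4 lay above knockdown replicate 3, so the groups overlapped. As a share of the summed FPKM of all 10 members, *Npc2c* had 4.005% ± 0.857 in knockdown and 1.27% ± 0.270 in control larvae, and *Npc2h* had 3.20% ± 0.545 in knockdown and 1.99% ± 0.568 in control larvae (SD, n = 3 libraries in each group). *Npc2g*, with 30.3% ± 2.42 in knockdown and 26.03% ± 1.32 in control larvae, was also separated between groups in this share. *Npc1b* was separated in the other direction, with 0.600% ± 0.216 in knockdown and 1.24% ± 0.299 in control larvae. The shares of the other 6 members overlapped.

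**Figure D4:**
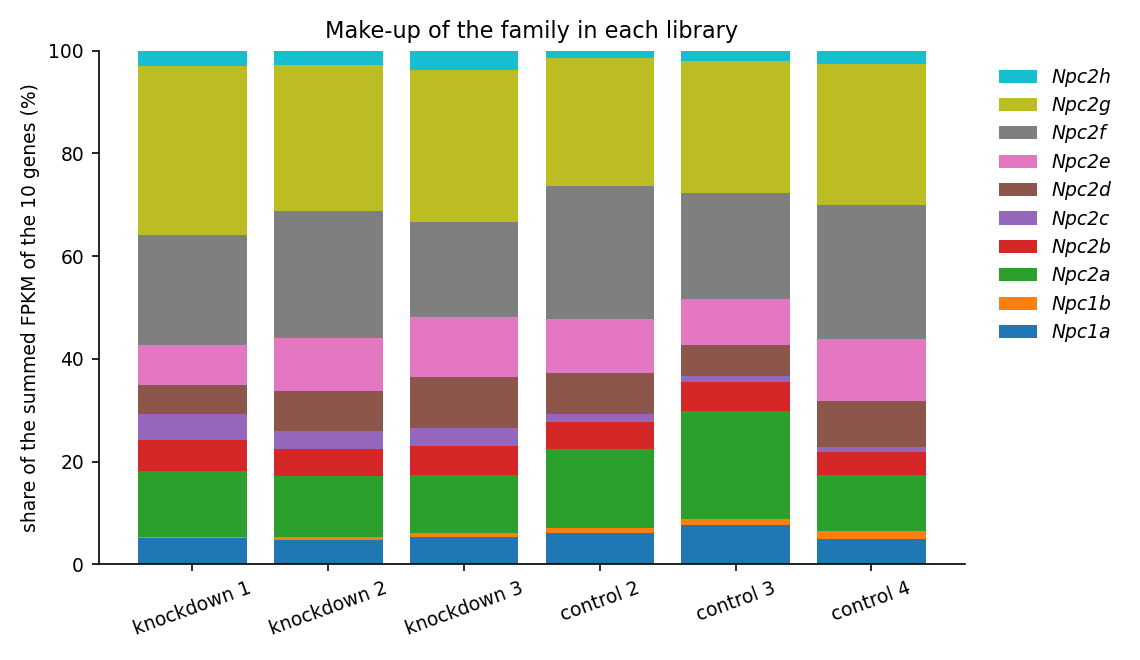
Share of each gene in the summed FPKM of the 10 family members, in percent, with 1 bar per library, the 3 knockdown libraries left of the 3 control libraries. *Npc2g* holds 28.3% to 33.0% of the knockdown bars against 24.9% to 27.5% of the control bars, and the *Npc2c* band is wider in the knockdown, at 3.50% to 4.99% against 1.009% to 1.55% in the control.

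The spread between replicates differed among members. In control libraries the coefficient of variation ran from 4.70% for *Npc2b* to 31.8% for *Npc2h*, and in knockdown libraries from 8.001% for *Npc1a* to 30.7% for *Npc1b*. The highest library held 6.73 times the lowest for *Npc2c*, 3.29 times for *Npc1b* and 3.18 times for *Npc2h*, and between 1.38 times (*Npc1a*) and 2.13 times (*Npc2d*) for the others. All 10 members passed the filter on low values, and none was listed at 0 in any library.

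For each DEG of the family, the 3 genes outside it with the highest Pearson correlation of log2(FPKM + 0.1) over the 6 libraries are given as a description. The points fall into the same groups, so any gene that separates the groups scores high. For *Npc2c* these were *Mes4* (r = 0.9996), *CG7824* (r = 0.998) and *Spn47C* (r = 0.996), of which *Spn47C*, a serpin gene, was a DEG with a log2 fold change of 1.94 (adjusted p = 0.00254, limma). For *Npc2h* they were *Psf3* (r = 0.991), *CG8191* (r = 0.987) and *CG14764* (r = 0.986). *Psf3*, which encodes a subunit of the GINS complex of DNA replication, had a log2 fold change of 0.52 (adjusted p = 0.0700, limma), and none of these 3 was a DEG.

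The gene lists around the family were ordered by their place in sterol and lipid handling, and the first holds the sensors of sterol level. Of 8 genes, which include *SREBP*, a transcription factor of lipid synthesis, its escort *SCAP*, and the sterol-sensing domain genes *ptc* and *disp*, 0 were DEGs. In limma 1 of the 8 had an unadjusted p under 0.05, beside 25.3% of all tested genes. It was *S2P*, the protease gene of SREBP release (unadjusted p = 0.0370, adjusted p = 0.168, limma). The median log2 fold change was 0.28, beside 0.16 for all tested genes, and *Ptr*, a gene related to *ptc*, had 0.33 (adjusted p = 0.464, limma). Of 8 sterol carrier and oxysterol-binding protein genes, 0 were DEGs, with a median of 0.10. In limma 3 of the 8 had an unadjusted p under 0.05, *CG3860* (log2 fold change 0.44, adjusted p = 0.0937), *Osbp* (0.36, adjusted p = 0.102) and *CG11151*, of which *CG11151* alone had an adjusted p under 0.05. It had 196, 206 and 215 FPKM in knockdown replicates 1, 2 and 3, against 312, 288 and 353 FPKM in control replicates 2, 3 and 4, a log2 fold change of -0.62 (adjusted p = 0.0321, limma). Of its 14 alternatives, 8 gave an adjusted p above that threshold, up to 0.124, among them 5 of the 6 fits without a library. Among 8 genes of lipoproteins and their receptors, 0 were DEGs, and the median was 0.03. The receptor gene *LpR1* (0.53, adjusted p = 0.0700) was the 1 gene with an unadjusted p under 0.05 in limma, followed by the lipid transfer particle gene *Apoltp* (0.26, adjusted p = 0.400).

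The list with the most DEGs was that of *Hr96* and digestive lipases, of whose 10 genes 7 were lower DEGs and 0 were higher DEGs. Over all tested genes, 1.08% were lower DEGs and 1.82% were higher DEGs. *Hr96* encodes DHR96, a nuclear receptor that binds cholesterol, is needed for the response of *Npc1b* to dietary sterol and activates *mag*, the gene of a gut lipase and sterol esterase. *Hr96* itself had 11.9, 13.1 and 11.6 FPKM in knockdown replicates 1, 2 and 3, against 8.03, 6.48 and 7.41 FPKM in control replicates 2, 3 and 4. Its log2 fold change was 0.73 (adjusted p = 0.0177, limma; 0.0768 after median-of-ratios scaling), so it was no DEG, and the adjusted p was 0.0604 without knockdown replicate 1 and 0.0807 without knockdown replicate 2. *mag* had 212, 156 and 268 FPKM in knockdown replicates 1, 2 and 3, against 509, 357 and 558 FPKM in control replicates 2, 3 and 4. Its log2 fold change was -1.17 (adjusted p = 0.0322, limma; 0.05998 after median-of-ratios scaling), and the adjusted p was between 0.0774 and 0.1003 without knockdown replicate 1 or 2 or control replicate 2 or 4. *Npc1b* and *mag* were thus both lower in each knockdown library than in each control library, and *Hr96* was higher. Of all tested genes, 4.66% lay below in this way and 28.8% above. A link between the values of these genes was not tested.

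The other lipase DEGs were *Lip3* (-3.22), *CG17192* (-3.17), *CG6283* (-1.73), *CG6277* (-1.72), *CG6295* (-1.63) and *CG8093* (-1.44), and the median of the list was -1.53. The list was chosen with earlier results of these libraries known, so this count is no independent evidence. The number of lower DEGs in the list was 5 after median-of-ratios scaling, 5 without knockdown replicate 2, and 4 without knockdown replicate 1, control replicate 2 or control replicate 4.

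Of 10 ecdysteroid genes listed, 7 were high enough to be tested, with 0 DEGs. In limma 1 of the 7, *spok*, had an unadjusted p under 0.05, beside 25.3% of all tested genes. The median log2 fold change was -0.45 and the range -0.83 to 0.23. The list holds genes of both synthesis and turnover, so its median is no measure of synthesis. *spok*, of the early steps of ecdysone synthesis, had 6.72, 4.75 and 6.59 FPKM in knockdown replicates 1, 2 and 3, against 9.68, 13.3 and 9.42 FPKM in control replicates 2, 3 and 4. Its log2 fold change was -0.83 (adjusted p = 0.0431, limma). It was a DEG after median-of-ratios scaling, with -1.01 (adjusted p = 0.0297), and with quantile normalization (-1.01, adjusted p = 0.0254), while with single libraries left out its adjusted p was between 0.0712 and 0.131. *sro*, another gene of these early steps, had a log2 fold change of -0.65 (adjusted p = 0.391) with overlapping groups. Salivary glue transcripts, which mark late larvae of this instar, summed to between 2771 and 9228 FPKM in knockdown and between 8424 and 25402 FPKM in control libraries. These sums overlapped, and the log2 fold changes of the 6 glue genes ran from -2.88 to 0.44. In limma 0 of the 6 were DEGs and 3 had an unadjusted p under 0.05. The part of larval stage in the values of the family was not tested.

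Lysosomal genes share the compartment in which NPC proteins work. Of 12 genes, 0 were DEGs, and the median log2 fold change was -0.08. In limma 3 of the 12 had an unadjusted p under 0.05, beside 25.3% of all tested genes. The glucocerebrosidase gene *Gba1a* (-0.97, adjusted p = 0.0369) and the hexosaminidase gene *Hexo1* (-0.75, adjusted p = 0.0178) had an adjusted p under 0.05 in limma in the lower direction, and *Gba1b* (0.63, adjusted p = 0.0401) in the higher direction. With single libraries left out, the adjusted p reached 0.114 for *Gba1a*, 0.0773 for *Hexo1* and 0.1498 for *Gba1b*. Without control replicate 3, *Gba1a* was a DEG (-1.22, adjusted p = 0.00223).

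Because *Npc2a*, *Npc2e* and *Npc2h* are annotated in the file with binding of lipopolysaccharide, peptidoglycan and lipoteichoic acid, antimicrobial peptide genes were set beside them. Their summed level was between 458 and 901 FPKM in knockdown libraries, and 103, 580 and 42.6 FPKM in control replicates 2, 3 and 4, so that control replicate 3 overlapped the knockdown. Of 13 genes, 1 was a DEG, beside 2.91% of all tested genes. It was *AttD*, with a log2 fold change of 1.94 (adjusted p = 0.0485, limma), and the median of the list was also 1.94. Without control replicate 3, 4 were DEGs and the median was 2.32, while leaving out any other single library gave 0. In control replicate 3, *Npc2h* had 9.23 FPKM, between the other controls. *Npc2e* had its lowest value of all libraries there, and *Npc2a* its highest, at 96.1 FPKM. Without control replicate 3, the log2 fold change was 1.09 for *Npc2h*, 0.15 for *Npc2e* and 0.24 for *Npc2a*. It was 1.99 for *Npc2c*, which lacks these binding terms. A link between these peptide genes and the values of the family was not tested.

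**Figure D5:**
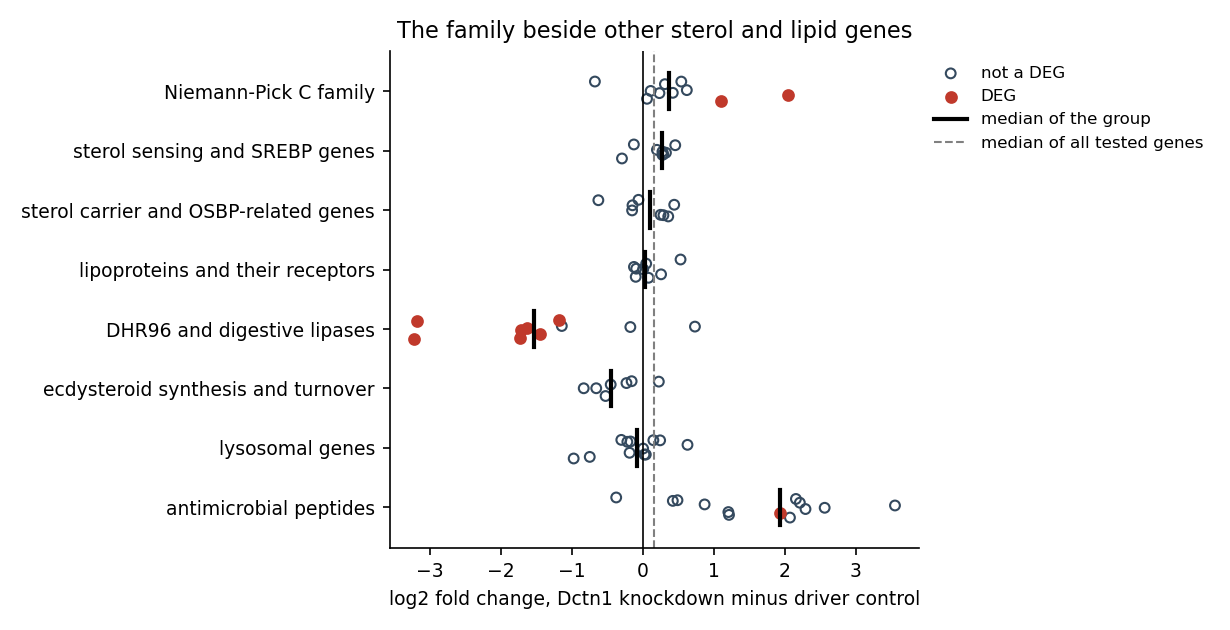
Log2 fold change of each tested gene, knockdown minus control, in the NPC family and in 7 lists of related genes, with DEGs filled in red, the median of each group as a black bar and that of all tested genes as a dashed line at 0.16. The family has 2 DEGs to the right, at 1.11 and 2.04, and the list of *Hr96* and digestive lipases has 7 to the left, between -3.22 and -1.17.

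The annotation in the file sets the 2 parts of the family apart. All 8 *Npc2* genes carry sterol binding, which no other gene in the file has, and sterol transport, which is shared with *Apoltp* alone. Both *Npc1* genes carry integral component of membrane. Extracellular region or space is given for 5 of the *Npc2* genes, *Npc2a*, *Npc2b*, *Npc2e*, *Npc2g* and *Npc2h*, and not for *Npc2c*, *Npc2d* or *Npc2f*. The 2 DEGs therefore came from both sets. The coding sequence of the *Npc2* genes is between 390 and 519 bp long, compared with 3762 to 3861 bp for the *Npc1* genes.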

How the data were processed

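RNA of whole female larvae was sequenced in 3 *Dctn1* knockdown and 3 driver control libraries. The authors cleaned the reads with SOAPnuke, aligned them with HISAT2 and quantified genes with RSEM. The deposited values are the authors' FPKM for each gene and library. The submitters' processing notes also name StringTie, Cufflinks, GATK and DESeq2. Tool versions, the genome build and the use of strand are not given in the sources used here, and the labels and the study's methods name different sequencers. FPKM carries no read depth, so the count test of the study could not be applied, and precision rests on the 3 libraries per group.

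Values were tested as log2(FPKM + 0.1) with limma 3.58.1 in R 4.3.3 (trended, robust variance) on the 9978 genes with a mean of at least 0.5 FPKM, with Benjamini-Hochberg adjustment over all of them. The fit was tested on simulated data. Single values were compared with two-sided exact permutation tests. The study describes the 3 libraries per group as biological replicates, each a pool of larvae, so p-values measure the spread between pools. Gene positions came from the BDGP6.54 annotation, and 13751 of 13858 gene IDs matched the RefSeq table. No sequences are printed.

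The members and the gene lists were chosen with earlier results of these data known. Named genes were the members, *Dctn1*, the nearest protein-coding gene on each side of a member, the DEGs of each list or else its 2 largest changes, and the 3 genes most like each member DEG. *S2P*, *Osbp*, *Gba1b* and *Hr96* were named outside this rule after their values were seen. A gene that the rule names is not reported here. Alternatives were other pseudocounts, low-value filters, scalings, variance settings and thresholds, a replicate block, and each library left out.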

Additional observations from a re-analysis of the deposited data

How the results depend on the processing

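The number of NPC members called, 2, became 1 (*Npc2c*) after median-of-ratios scaling and likewise 1 with quantile normalization. It lay between 1 and 2 with single libraries left out. *Npc1a* turned to -0.0669 after median-of-ratios scaling, and *Npc2a* to -0.12 after that scaling and to between -0.14 and 0.24 with single libraries left out, where -0.05 came without knockdown replicate 1 and -0.14 without control replicate 4. Over all genes there were 290 DEGs, 182 higher and 108 lower. These were 114 higher and 120 lower after median-of-ratios scaling, 117 higher with quantile normalization, and 670 genes, 505 higher and 165 lower, by the adjusted p alone. With single libraries left out there were 227 to 271 DEGs, 140 to 183 higher and 69 to 109 lower, the 69 without control replicate 2. The median of the sterol sensing list was 0.10 after median-of-ratios scaling and 0.0952 with quantile normalization. That of the sterol carriers was 0.25 with a minimum mean of 5 FPKM and -0.0826 after median-of-ratios scaling. That of the lipoproteins was -0.0943 with quantile normalization, -0.15 after median-of-ratios scaling and between -0.00397 and 0.13 with single libraries left out, and that of the lysosomal genes -0.26 after median-of-ratios scaling. The causes were not tested. *Npc1b* has no value with a minimum mean of 5 FPKM. The depth of the libraries is unknown and sets no stated limit.

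The groups share the replicate numbers 2 and 3, and no label links same-numbered libraries, whose deviations from their group means had correlations of 0.40 and 0.14, beside -0.62 to 0.63 for the other pairs. With the replicate block, which uses 2 libraries per group, 2 members and 388 genes were called, 200 of them lower, *Npc1a* was at -0.0648, *Npc2a* at -0.25, *Npc1b* at -0.17, and the median of the lysosomal genes at -0.23. Of the list of *Hr96* and digestive lipases, 1 gene, *CG17192*, was called with the block, against 7 without it, and of the ecdysteroid list 2 genes, *spok* and *sro*, against 0 without it.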
